A study of Mus musculus with 22 samples.

Results

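The genes examined were 10 that encode transcription factors of the lung epithelial lineage: Nkx2-1, Foxa1, Foxa2, Gata6, Foxp1, Foxp2, Etv5, Id2, Cebpa and Elf3. Every probe set that the array annotation assigns to these symbols alone was taken, which gave 28 probe sets of 45037, for 10 genes of 18193. The genes were followed in 3 antibody-treated preparations of sorted A2C12 cells, 3 untreated preparations of the same cells and 16 lungs, of which 8 were labelled female and 8 male. A2C12 is a line grown from a lung tumour of a mouse with c-myc and c-raf transgenes on a C57BL/6 background, and the lungs came from C57BL/6 mice without the transgenes, whose ages the labels do not give. Treated cells received 100 µg/ml of a monoclonal antibody against mouse EpCAM for 48 h. All cells, treated or not, were then sorted for the side population, the fraction that excludes the dye Hoechst. All 6 cell samples are preparations of a single line, so their spread does not measure differences between tumours, and no unsorted cells of the line were analysed here. The promoter that drives each transgene is not given in the sources used here.

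Lung epithelium forms from foregut endoderm, and a small set of transcription factors acts at each step. NKX2-1 is the homeodomain factor that marks the lung and thyroid part of the foregut and drives surfactant and secretory genes. FOXA1 and FOXA2 are forkhead factors that open chromatin across endoderm, and GATA6 is a zinc finger factor that works with them. ETV5, ID2 and the repressors FOXP1 and FOXP2 belong to the growing distal tip of the airway tree, while C/EBPα and ELF3 belong to maturing alveolar and airway epithelium. Whole lung also holds endothelium, connective tissue and blood cells, and several of these factors are not limited to epithelium.

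Cells had less transcript than lung for 7 of the 10 genes, and 3 did not pass the test, for antibody-treated and for untreated cells alike. Over all genes tested, 23.9% were lower in antibody-treated and 23.8% in untreated cells. The sets of Nkx2-1, Foxa1, Foxp2 and Elf3 passed the filter on low values only through lung and had to be lower. Foxa1 was near 0 in every cell preparation, while its paralogue Foxa2 overlapped the range of lung. The plot of member values by array shows this for each gene's chosen probe set, the set with the highest mean over the 22 arrays that is not of the cross-hybridizing type. Values are intensities on the deposited linear scale, and log2 changes are differences of normalized log2(intensity + 16), cells minus lung. A call against lung needed a Benjamini-Hochberg adjusted p under 0.05 over all probe sets tested and a change of at least 2-fold.

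**Figure D1:**
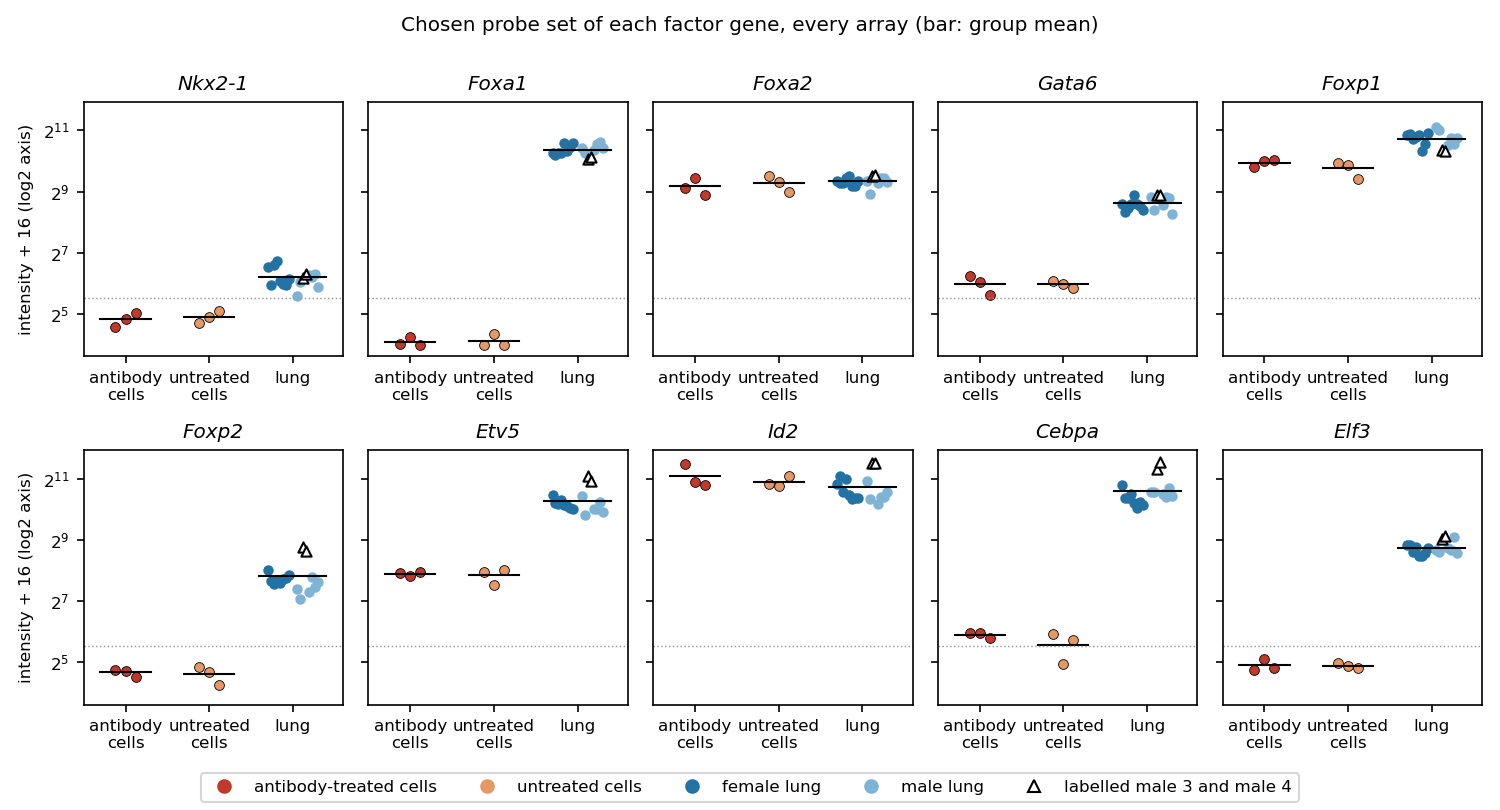
Intensity plus 16 on a log2 axis for the chosen probe set of each of the 10 genes. Points are arrays, without normalization, and bars are group means. The dotted line is the filter level, the 40th percentile after normalization, so a point's side of it need not match the filter. Open triangles are the lung arrays labelled male 3 and male 4. The 6 cell arrays overlap the lung arrays for Foxa2 and Id2, with antibody-treated replicate 3 just under the lowest lung for Foxa2. For the other 8 genes they lie below all 16 lung arrays. The share of all genes that separate in this way was not computed.

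Promoter sequence is shown for 4 genes, because Foxa1 and Foxa2 are paralogues that differed in outcome and Cebpa and Elf3 had the largest changes after Foxa1. The windows run from 250 bases before to 50 bases after a start site in RefSeq (GRCm38.p6) and are written 5′ to 3′ on the gene's strand. Capitals mark matches, on either strand, to 4 motifs, which do not overlap here. The motifs were the TATA box, searched as TATAAA, the NF-Y box, searched as CCAAT, the core of forkhead sites, searched as TGTTTAC, and the core of NKX2 sites, searched as CAAGTG. The Foxa1 window is chr12:57546062-57546361 on the minus strand, the first Foxa2 window is chr2:148046920-148047219 on the minus strand, the Cebpa window is chr7:35119043-35119342 on the plus strand and the Elf3 window is chr1:135258423-135258722 on the minus strand.
Foxa1: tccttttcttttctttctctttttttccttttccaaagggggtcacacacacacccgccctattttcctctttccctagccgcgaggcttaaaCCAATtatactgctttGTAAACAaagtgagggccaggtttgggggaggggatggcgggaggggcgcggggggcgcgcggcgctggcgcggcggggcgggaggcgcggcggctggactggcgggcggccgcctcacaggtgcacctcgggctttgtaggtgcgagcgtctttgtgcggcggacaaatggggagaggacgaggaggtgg
Foxa2: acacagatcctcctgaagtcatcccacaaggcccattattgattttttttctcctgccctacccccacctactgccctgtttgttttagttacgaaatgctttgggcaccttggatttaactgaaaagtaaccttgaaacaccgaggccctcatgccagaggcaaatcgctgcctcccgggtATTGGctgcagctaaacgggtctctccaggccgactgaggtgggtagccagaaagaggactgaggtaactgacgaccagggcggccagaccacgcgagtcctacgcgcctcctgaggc
Cebpa: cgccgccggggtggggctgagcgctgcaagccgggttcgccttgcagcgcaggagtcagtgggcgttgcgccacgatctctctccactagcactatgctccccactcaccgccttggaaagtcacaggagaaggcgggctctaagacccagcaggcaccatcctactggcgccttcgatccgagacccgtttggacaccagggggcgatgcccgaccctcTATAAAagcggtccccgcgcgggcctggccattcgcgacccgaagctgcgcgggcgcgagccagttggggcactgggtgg
Elf3: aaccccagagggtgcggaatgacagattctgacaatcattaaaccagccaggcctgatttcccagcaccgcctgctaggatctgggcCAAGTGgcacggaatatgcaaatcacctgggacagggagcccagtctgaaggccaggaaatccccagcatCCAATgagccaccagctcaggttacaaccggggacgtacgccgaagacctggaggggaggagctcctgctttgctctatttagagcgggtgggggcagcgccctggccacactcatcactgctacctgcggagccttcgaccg
The Foxa1 window held an NF-Y box and a forkhead core match, and the first Foxa2 window an NF-Y box in the reverse direction. The Cebpa window held a TATA box at -30 from the start, and the Elf3 window an NKX2 core and an NF-Y box. Of 32851 RefSeq windows of this length, 13.62% held the TATA box, 37.41% the NF-Y box, 3.65% the forkhead core and 13.56% the NKX2 core. The Foxa1 and Cebpa windows held 26 and 29 CpG dinucleotides, the Elf3 window 12, and the 3 Foxa2 windows in RefSeq 12, 23 and 13, with a median of 7 over all windows. These matches describe letters in a window and are not binding sites, and no binding or methylation was measured.

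The 2 lung arrays labelled male 3 and male 4 stood apart before any comparison. They read 1512 or more for Xist, a transcript of the inactive X chromosome, where the other 6 male-labelled arrays read 24.0 or less, so 2 of 8 male-labelled arrays went against their label. Their summed intensity over 8 epithelial markers was 19308 and 21811, against 10844 to 17104 on the other 14 lung arrays. Their summed alveolar type 2 and macrophage markers also lay above those 14 arrays, and their ciliated, endothelial and smooth muscle markers below them. Array medians were 39.3 to 40.6 in cells and 47.9 to 54.6 in lung. The dap control transcript, an RNA spike of bacterial origin, was at 366 to 601 on cell arrays and at most 2.72 on lung arrays, so sample handling and the cell against lung comparison cannot be told apart. Replicate arrays correlated across probe sets at 0.973 to 0.983 in antibody-treated cells, 0.981 to 0.985 in untreated cells, 0.983 to 0.993 in female lung and 0.968 to 0.992 in male lung, as a description over features that are not independent.

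The cells differed from lung at 39.3% of probe sets for antibody-treated and 39.8% for untreated cells, so a call against lung is common on these arrays. With 1 probe set per gene, 23.9% of 15138 genes were lower and 17.2% higher in antibody-treated cells, and 23.8% of 15197 were lower and 17.8% higher in untreated cells. Against that background the chosen sets of the 10 genes gave 7 lower, 0 higher and 3 not passing in each comparison. Of the 7, the sets of Nkx2-1, Foxa1, Foxp2 and Elf3 passed the filter on low values only through lung, so their sign was set by the filter. The count is therefore given as a description. Passing in this way fixes the sign but not the call, and wherever a set is said to have had to be lower or higher, the sign is meant. The median change of the 10 genes was -2.30 in antibody-treated and -2.33 in untreated cells, beside 0.05 and 0.07 over all genes. Over all 28 probe sets, 26 were tested, of which 12 were lower and 1 higher in antibody-treated cells, where 19.6% and 19.8% of all probe sets were. In untreated cells 14 were lower and 1 was higher, beside 19.6% and 20.1%. Among the lower sets, those of Nkx2-1, Foxa1, Foxp2 and Elf3 and Gata6 1425463_at passed only through lung and had to be lower. In untreated cells this held for Foxp1 1443258_at too, so these counts are also a description. Without normalization 40.3% of the calls in each comparison were higher in cells, against 50.3% for antibody-treated and 50.6% for untreated cells as reported. Lung is a mixture of cell types, and fewer cells of a type and less RNA per cell cannot be told apart in it.

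Foxa1 and Foxa2 encode the pair of forkhead factors that lung epithelium shares with liver and gut. Foxa1 (probe set 1418496_at) read 0.139, 3.04 and 0.0113 in antibody-treated cells and 0.0133, 4.66 and 0.00864 in untreated cells. In lung it ran from 1064 to 1553 with a median of 1297. All 6 cell arrays were near 0 and none came close to lung. The log2 change was -6.25 ± 0.11 (SE; limma adjusted p = 3.5e-24) in antibody-treated and -6.22 ± 0.11 (adjusted p = 3.7e-24) in untreated cells. Its size depends on the offset, since the cell values are so low: in untreated cells Foxa1 changed by -9.27 with an offset of 1 and by -4.38 with an offset of 64.

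Foxa2 (1422833_at) read 536, 688 and 463 in antibody-treated cells and 707, 617 and 491 in untreated cells. Lung ran from 465 to 725 with a median of 631. The 3 groups overlapped, with only antibody-treated replicate 3 just under the lowest lung. The change from lung was -0.12 ± 0.11 (SE; 95% interval -0.34 to 0.11) in antibody-treated and -0.03 ± 0.11 (interval -0.25 to 0.20) in untreated cells, and neither passed. The sign was not stable, since median centring gave Foxa2 changes of 0.10 and 0.20. Foxa3, the remaining gene of the family, changed by 0.39 in antibody-treated and 0.54 in untreated cells, under the 2-fold requirement.

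Nkx2-1 (1422346_at) was dim on every array. It read 7.89, 12.8 and 16.9 in antibody-treated cells and 10.5, 13.9 and 18.4 in untreated cells, against 32.8 to 91.7 in lung with a median of 56.1. The groups did not overlap, but the filter level was about 29.9, so lung itself lay close to it and all 6 cell arrays lay below it. The change was -1.18 ± 0.17 (SE; adjusted p = 8.3e-07) in antibody-treated and -1.09 ± 0.17 (adjusted p = 2.7e-06) in untreated cells, just past 2-fold. With an offset of 64 these became -0.58 and -0.54 for Nkx2-1 and lost the call. In untreated cells the call was also lost under median centring, at -0.9997, and without untreated replicate 1, at -0.995. A single dim probe set thus carries what the arrays hold on this gene.

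Gata6 has 3 probe sets, and all were lower in cells in sign. The chosen set (1425464_at) read 59.2, 50.0 and 33.7 in antibody-treated cells and 51.8, 47.7 and 41.5 in untreated cells, against 293 to 457 in lung with a median of 368. No cell array came within reach of lung. The change was -2.40 ± 0.14 (SE; adjusted p = 5.8e-14) in antibody-treated and -2.39 ± 0.14 (adjusted p = 6.3e-14) in untreated cells. The set 1425463_at changed by -1.56 and -1.84 and was called lower, and 1443081_at by -0.69 and -0.49, under the 2-fold requirement. The set 1425463_at lay below the filter in the cells, so it passed only through lung and had to be lower. Gata4, a paralogue better known from heart and gut, went the other way, with 97.4 to 139 in antibody-treated and 82.9 to 127 in untreated cells against 8.81 to 28.6 in lung. Its chosen set rose by 2.25 ± 0.14 and 2.05 ± 0.14 (SE), while its second set was below the filter and was not tested. All 16 lung arrays of the chosen set lay below the filter level, so it passed only through the cells and had to be higher.

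Cebpa and Elf3 encode factors of maturing epithelium, and both were far lower in the cells. Cebpa (1418982_at) read 46.3, 46.7 and 39.3 in antibody-treated cells and 44.4, 14.6 and 36.8 in untreated cells, against 1032 to 2971 in lung with a median of 1388. The change was -4.43 ± 0.21 (SE; adjusted p = 2.0e-15) in antibody-treated and -4.85 ± 0.21 (adjusted p = 3.2e-16) in untreated cells. The gap between the cell arrays and the lowest lung was wider than the whole spread among the cells. Elf3 (1416916_at) read 11.2, 18.2 and 12.4 in antibody-treated cells and 15.5, 13.7 and 12.1 in untreated cells, against 340 to 541 in lung with a median of 399.7. It changed by -3.69 ± 0.14 (SE) in each cell group, with adjusted p = 1.3e-17 in antibody-treated and 1.2e-17 in untreated cells. The cell arrays of Elf3 all lay below the filter level. Elf5 and Ehf, ETS factors of the same epithelial subfamily as Elf3, changed by -4.88 and -3.18 in untreated cells in their chosen sets, and both lay below the filter in the cells, so they passed only through lung and had to be lower. One further Ehf set was higher in the cells in sign, at 0.85, and did not pass.

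Etv5, Id2, Foxp1 and Foxp2 are the genes of the distal tip, and they did not move as a unit. Etv5, an ETS factor induced by FGF signalling, read 228, 211 and 230 in antibody-treated cells and 229, 169 and 241 in untreated cells in its chosen set (1428142_at). Lung ran from 884 to 2152 with a median of 1116. The cell arrays were tightly grouped and all were below lung, by -2.19 ± 0.19 (SE; adjusted p = 1.2e-10) in antibody-treated and -2.26 ± 0.19 (adjusted p = 6.35e-11) in untreated cells. The set 1450082_s_at was called lower as well, at -1.70 and -1.59, and 1420998_at changed by -0.77 and -0.94, under the 2-fold requirement. Etv4, a paralogue of Etv5, rose by 1.79 ± 0.27 and 1.99 ± 0.27 (SE) to medians of 55.3 in antibody-treated and 66.1 in untreated cells, against a lung median of 9.55. Its second set was not tested.

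Id2 encodes an inhibitor that binds basic helix-loop-helix partners. Its chosen set (1435176_a_at) read 2824, 1882 and 1747 in antibody-treated cells and 1811, 1703 and 2156 in untreated cells, against 1134 to 2917 in lung with a median of 1452. The groups overlapped fully. The changes of 0.34 ± 0.22 (SE; interval -0.12 to 0.80) in antibody-treated and 0.17 ± 0.22 (interval -0.29 to 0.63) in untreated cells did not pass. The other Id2 sets changed by -0.21 and 0.14 in antibody-treated and by -0.26 and 0.01 in untreated cells, and did not pass either. Tcf3, which encodes an E protein partner of ID2, rose by 2.20 ± 0.14 in untreated cells and Tcf4, another E protein gene, fell by 2.36 ± 0.15 (SE) on the log2 scale. All 3 Tcf3 sets were higher and 5 of 6 Tcf4 sets lower, with 1 Tcf4 set at 0.96 and not passing.

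Foxp2 was lower in 4 of its 6 probe sets, and its chosen set (1438232_at) read 11.1, 10.5 and 6.72 in antibody-treated cells and 12.99, 9.49 and 3.19 in untreated cells. Lung ran from 119 to 417 with a median of 187. The change was -2.91 ± 0.25 (SE; adjusted p = 1.4e-10) in antibody-treated and -2.99 ± 0.25 (adjusted p = 8.4e-11) in untreated cells. The sets 1438231_at, 1440108_at and 1458191_at were also lower, by -1.52 to -2.14 and by -1.46 to -2.46. All 4 lower sets lay below the filter in the cells, so they passed only through lung and had to be lower. The remaining sets lay below the filter and were not tested. Of these, 1441365_at read 20.4 to 27.0 in antibody-treated and 16.4 to 30.8 in untreated cells, against 0.00475 to 11.9 in lung, so it ran opposite to the tested sets at a level where no test was made.

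Foxp1 is the gene whose probe sets disagreed in direction. Its chosen set (1435222_at) read 886, 1001 and 1031 in antibody-treated cells and 970, 924 and 669 in untreated cells, against 1265 to 2208 in lung with a median of 1712. All cell arrays were below all lung arrays, and the changes of -0.75 ± 0.14 (SE; adjusted p = 3.5e-05) in antibody-treated and -0.96 ± 0.14 (adjusted p = 1.4e-06) in untreated cells missed the 2-fold requirement. In untreated cells the chosen set of Foxp1 passed it without untreated replicate 1 (-1.02) or replicate 2 (-1.03). The set 1455242_at was close to the chosen one, at -0.77 and -0.95, and passed in untreated cells without replicate 2 (-1.06). The set 1421141_a_at went the other way, with 539, 590 and 612 in antibody-treated cells and 545, 658 and 463 in untreated cells, against 137 to 371 in lung with a median of 232. Here every cell array was above every lung array, and the change was 1.41 ± 0.18 (SE; adjusted p = 1.0e-07) in antibody-treated and 1.34 ± 0.18 (adjusted p = 2.5e-07) in untreated cells. The set 1421142_s_at was above lung in the same way, by 0.70 ± 0.11 (SE) in each cell group, under 2-fold. In untreated cells 1421140_a_at and 1443258_at were called lower, at -1.28 and -1.05, and in antibody-treated cells they changed by -0.80 and -0.93 without a call. The set 1443258_at lay below the filter in the cells and passed only through lung. The call of 1421140_a_at was lost without untreated replicate 3 (-0.94). That of 1443258_at was lost without untreated replicate 1 (-0.94), with median centring (-0.995), with array weights (-0.97) and with an offset of 64 (-0.57). In antibody-treated cells 1421140_a_at was called without replicate 3 (-1.13) and 1443258_at without replicate 2 (-1.04). The sets 1435221_at and 1438802_at overlapped lung, with changes between -0.17 and -0.04. Which transcripts of Foxp1 each probe set detects was not analysed here. The map of all 28 probe sets shows Foxp1 on both sides of 0 and every other tested gene on the lower side or around 0.

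**Figure D2:**
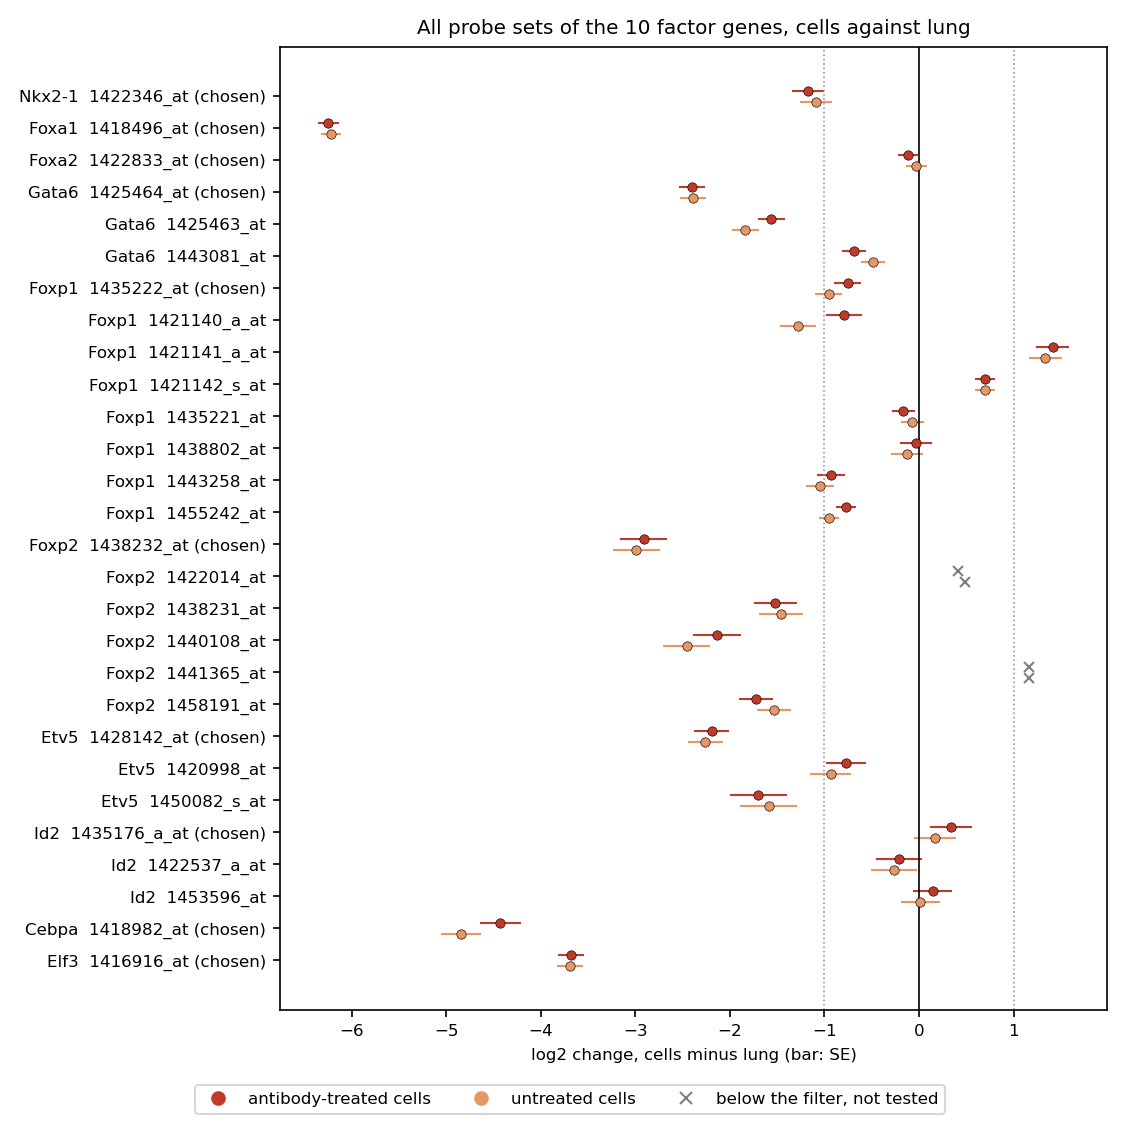
Log2 change, cells minus lung, for the 28 probe sets of the 10 genes, with the model's SE as bars and dotted lines at a 2-fold change. Crosses are the 2 Foxp2 sets below the filter. Foxp1 ranges from -1.28 to 1.41 across its sets, and the 3 Id2 sets stay close to 0.

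The antibody comparison asked how these genes differed between treated and untreated sorted cells. No gene passed: 0 of 6 chosen sets and 0 of 16 probe sets tested were called, where 0.0157% of 12711 genes and 0.0109% of 27499 probe sets were called (limma on the 6 cell arrays, adjusted p under 0.05). Over all probe sets 331 had an unadjusted p under 0.05, and none of the 16 did. Nkx2-1, Foxa1, Foxp2 and Elf3 lay below the filter in the cells and were not tested. Cebpa had the largest difference among the chosen sets, 0.42 ± 0.27 (SE; 95% interval -0.18 to 1.03), and untreated replicate 2 at 14.6 was the array below the rest. Foxp1 1421140_a_at differed by 0.48 ± 0.36 (SE; interval -0.35 to 1.32), with 405, 253 and 717 in treated and 393, 370 and 163 in untreated cells. For Foxa2 the interval was -0.51 to 0.34, for Gata6 -0.42 to 0.40, for Etv5 -0.30 to 0.44 and for Id2 -0.26 to 0.61. A 2-fold difference lay outside these 4 intervals, which refer to the chosen sets, while smaller differences remain within them.

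**Figure D3:**
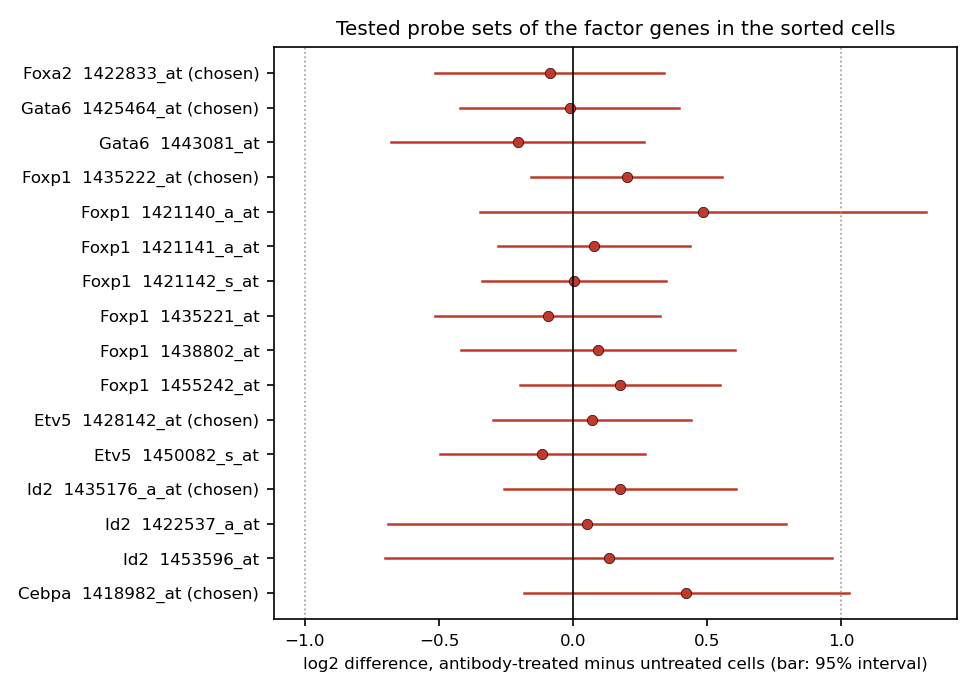
Log2 difference, antibody-treated minus untreated cells, for the 16 probe sets above the filter in the cells, with 95% intervals as bars and dotted lines at 2-fold. Every interval holds 0, and those of Foxp1 1421140_a_at and Cebpa reach past the upper dotted line.

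Within lung, no member passed between female-labelled and male-labelled arrays: 0 of 10 genes and 0 of 26 probe sets were called, beside 0.104% of 14392 genes and 0.108% of 29538 probe sets. The widest differences among chosen sets were -0.40 ± 0.16 (SE; adjusted p = 0.40) for Cebpa and -0.15 ± 0.11 (adjusted p = 0.68) for Elf3. At an unadjusted p under 0.05 stood 6 of the 26 member sets and 2974 of all 29538, by limma. These 6 were Cebpa, Id2 1453596_at at 0.30 and 4 Foxp1 sets, 1438802_at, 1421142_s_at, 1421141_a_at and 1421140_a_at, at 0.20 to 0.38. The arrays labelled male 3 and male 4 enter the male group here. Their values were 417 and 384 for Foxp2, where the other 14 lungs ran from 119 to 245, and 2152 and 1914 for Etv5, against 884 to 1389. Id2 read 2917 and 2870 against 1134 to 2163, and Cebpa 2524 and 2971 against 1032 to 1754. Foxa1 went the other way, with 1064 and 1105 against 1159 to 1553. Gata6 read 457 on each, against at most 456. So the chosen sets of 5 of the 10 genes were above the range of the other lungs on these arrays, Gata6 by little. The other probe sets of these genes were mixed. Further sets of Foxp2, Etv5 and Id2 were also above that range on both arrays, and other sets of the same genes were not. The remaining Gata6 sets lay inside it, at 125 and 96.8 against 88.2 to 165, and at 87.3 and 73.4 against 64.3 to 95.9. The share over all genes was not computed, so the count of 5 has no background beside it. The epithelial, type 2 and macrophage marker sums of these arrays were above those of the other 14 lungs too. The part of tissue composition in these differences was not tested. Leaving both arrays out moved the change of untreated cells from lung to -4.74 for Cebpa, and for Foxp1 to -1.01, which passed the 2-fold requirement.

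**Figure D4:**
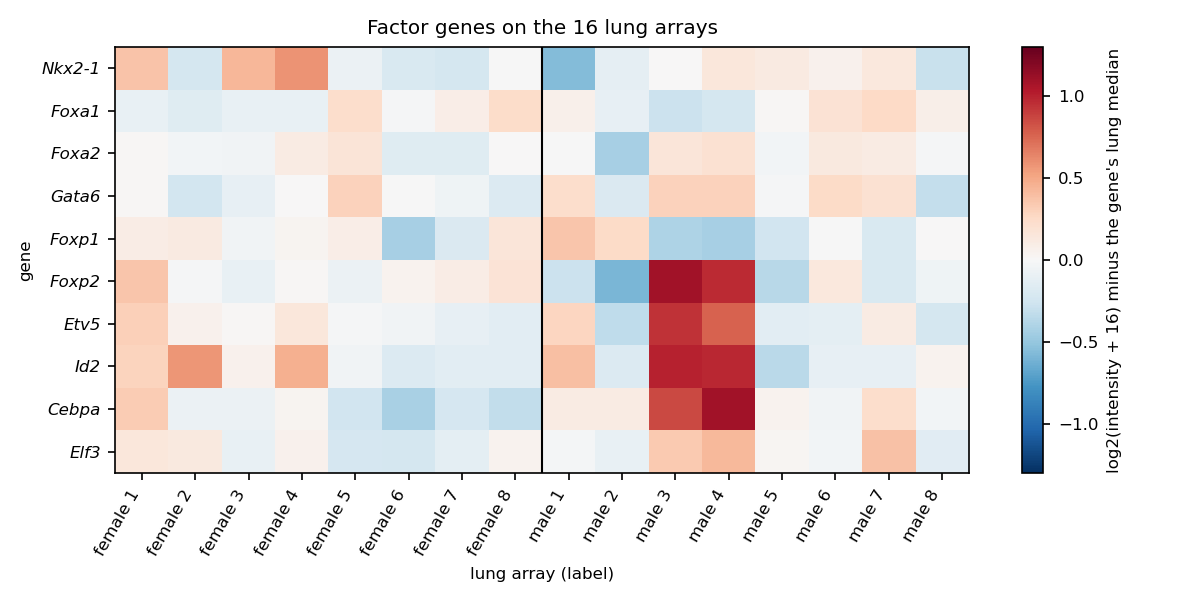
Values of log2(intensity + 16), without normalization, of the chosen probe sets on the 16 lung arrays, each minus the gene's lung median. Female-labelled arrays are left of the line and male-labelled arrays right of it. The columns male 3 and male 4 are above the median for Foxp2, Etv5, Id2 and Cebpa and below it for Foxa1 and Foxp1.

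How many pairs of genes covaried across lungs rested on those 2 arrays. Over 16 arrays and 45 pairs of genes, 22 pairs passed by Pearson's r and 6 by Spearman's rho (permutation tests, Benjamini-Hochberg over the 45 pairs). Etv5 and Id2 had the highest Pearson r, 0.88 (rho 0.74; permutation p = 7.0e-05 and 0.0015; adjusted p = 0.0016 and 0.033), followed by Cebpa and Elf3 at 0.87 (rho 0.84; permutation p = 3.0e-05 and 0.00018; adjusted p = 0.0013 and 0.0081). Foxa1 and Id2 had the lowest, -0.77 (rho -0.71; permutation p = 0.00041 and 0.0025; adjusted p = 0.0042 and 0.037). Without the arrays labelled male 3 and male 4, 0 of 45 pairs passed by either measure. On those 14 arrays r was 0.68 for Etv5 and Id2, 0.75 for Cebpa and Elf3 (adjusted p = 0.11) and -0.60 for Foxa1 and Id2. For Etv5 with Id2 and for Cebpa with Elf3, those are also the 2 arrays farthest from the x gene's median. For Foxa1 with Id2 the farthest were female 8 and male 3, and r without them was -0.70. The within-label r was 0.71 in female and 0.94 in male arrays for Etv5 and Id2, 0.76 and 0.91 for Cebpa and Elf3, and -0.74 and -0.83 for Foxa1 and Id2. Each label has 8 arrays, and the male values include male 3 and male 4.

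The lung genes that NKX2-1, FOXA and C/EBP factors are known to drive were all lower in the cells, 17 of 17 measured in each comparison, with median changes of -7.58 in antibody-treated and -7.81 in untreated cells. Scgb1a1, the club cell secretory protein gene, changed by -9.49 in untreated cells, the club cell cytochrome gene Cyp2f2 by -8.99, the secretoglobin gene Scgb3a2 by -8.94 and the surfactant protein gene Sftpa1 by -8.59. The lipid transporter gene Abca3 was the least changed, at -2.98 and -3.08, with 293 to 314 in antibody-treated and 248 to 319 in untreated cells against 2107 to 4236 in lung. Of the 17, 12 lay below the filter in the cells, so they too passed only through lung and had to be lower. For those 12 the size of the change follows the lung intensity and the offset of 16 added before the logarithm. With an offset of 64 the median over the 17 was -6.39 in antibody-treated and -6.43 in untreated cells, and with an offset of 1 it was -8.39 and -8.97.

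Of 20 paralogues of the 10 genes, 19 were tested, and 2 were called higher, the Gata4 and Etv4 named above, with 6 lower in antibody-treated and 8 lower in untreated cells and medians over the 20 of -0.65 and -0.74. Over all genes tested, 17.2% were called higher and 23.9% lower in antibody-treated cells, and 17.8% and 23.8% in untreated cells. Elf5 and Ehf, and in untreated cells also Gata5, were lower with the cells below the filter. Gata4 was not tested once any 1 cell array of the comparison was left out, since 2 cell arrays cannot meet a filter of 3, and Etv4 lost its call with an offset of 64 (0.86 in antibody-treated and 0.99 in untreated cells) and was not tested with the 60th percentile as the filter. The paralogues lower in untreated cells numbered 5 with an offset of 64. Gata2 was the third largest fall, to medians of 208 in antibody-treated and 184 in untreated cells against 1835 in lung, and Gata2 also serves blood and endothelial lineages. Other transcription factors of airway and alveolus gave 1 higher and 11 lower of 22 measured in each comparison, with medians of -0.98 and -1.20. Of the 11, Sox2, Foxj1, Grhl2, Myb and Trp73 lay below the filter in the cells, so these 5 passed only through lung and had to be lower. Sox9, a factor of the distal tip and of cartilage, was the gene that rose, by 5.65 ± 0.19 in antibody-treated and 5.73 ± 0.19 (SE) in untreated cells, in each of its 3 sets. Sox2, the factor of the proximal airway, read at most 2.46 in the cells against 306 to 786 in lung, a change of -5.13 ± 0.19 and -5.05 ± 0.19 (SE). The ciliated cell factor Foxj1 changed by -4.59 and -4.39, and Hopx, a homeodomain gene of type 1 cells, by -4.28 and -4.23.

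**Figure D5:**
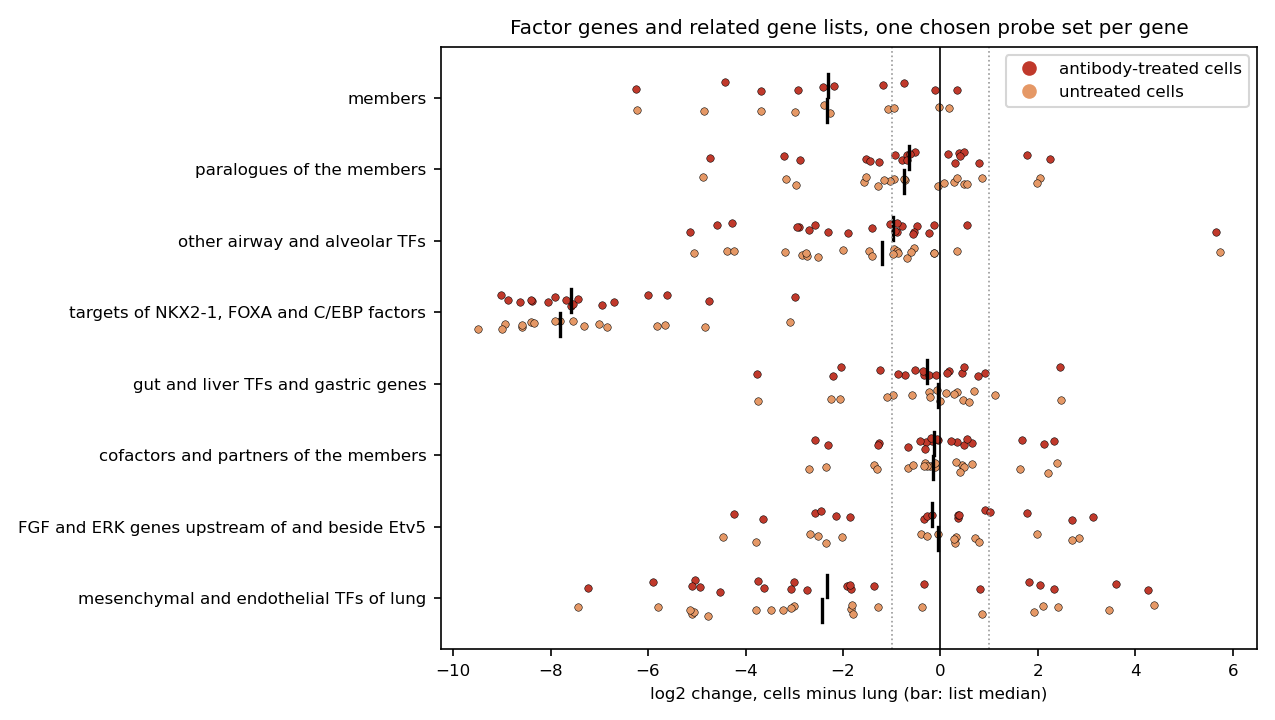
Log2 change, cells minus lung, of the chosen probe set of each measured gene in 8 lists, including genes below the filter, with antibody-treated cells above untreated cells in each list and list medians as bars. The target genes of the factors have medians of -7.58 and -7.81, of which 12 of 17 lay below the filter in the cells, and Sox9 is the rightmost point of the airway and alveolar list.

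Genes of FGF and ERK signalling, upstream of Etv5 or beside it, were mixed. In antibody-treated cells 4 were higher and 6 lower of 17, and in untreated cells 3 higher and 6 lower. The medians were -0.17 and -0.04. Etv4 is among the higher genes both here and in the paralogue list, so the 2 counts are not separate. The higher count was 2 in antibody-treated cells with an offset of 64 and 5 in untreated cells with median centring. Fgfr1 was higher in antibody-treated cells at 1.02, but lost the call without normalization, with an offset of 64 or with array weights. The same held with the replicate number as a block, without male 3 and male 4, and without antibody replicate 3 (0.84). Ccnd1, not called there at 0.91, gained a call without normalization (1.00), with median centring (1.28) and with array weights (1.06). The morphogen gene Shh changed by -4.45 and the FGF antagonist gene Spry1 by -3.78 in untreated cells. Of the 6 lower genes in each comparison, 2, Shh among them, lay below the filter in the cells. These passed only through lung and had to be lower. Dusp4, a phosphatase gene induced by ERK, rose by 2.69 ± 0.18 (SE) in untreated cells, with 851 to 1156 against 89.5 to 260 in lung. The ligand gene Ereg rose by 2.84 ± 1.01 (SE; adjusted p = 0.013), with 211 to 538 in untreated cells against a lung median of 11.7, but lung ran up to 1580 and overlapped. Ereg lost that call without untreated replicate 1 (2.52) and with the replicate number as a block (2.33). Fgfr2, the receptor gene of the distal tip, fell to 128 to 175 in antibody-treated and 115 to 182 in untreated cells, against 795 to 1959 in lung.

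Cofactors and partners of the factors were less one-sided, with 3 higher and 4 lower of 20 in each comparison and medians of -0.12 and -0.16. Zfpm2, which encodes a GATA partner, rose by 2.32 ± 0.12 and 2.39 ± 0.12 (SE), in both of its sets, and Hdac2 by 1.67 and 1.63. The nuclear receptor coactivator gene Ncoa1 changed by -2.57 and -2.69. Gut and liver factors and gastric genes were searched because loss of NKX2-1 is known to open a gastric program in mouse lung tumours. Of 18 measured, 9 were tested in antibody-treated and 10 in untreated cells, with 1 higher and 3 lower and with 2 higher and 3 lower, and medians over all 18 of -0.29 and -0.04. The gastric protease gene Ctse rose by 2.45 ± 0.27 and 2.47 ± 0.27 (SE), though a second Ctse set was at -0.74 in untreated cells and did not pass. Cdx2, an intestinal factor, passed at 1.11 ± 0.14 (SE) in untreated cells and missed 2-fold at 0.92 in antibody-treated cells. The Cdx2 call in untreated cells was lost without normalization (0.85) and with an offset of 64 (0.59), and Cdx2 was not tested with the 60th percentile filter, while antibody-treated cells gained it with an offset of 1 (1.35) or without replicate 1 (1.03). Tff2 and Hnf4a were lower, by -3.75 and -2.24 in untreated cells. Both lay below the filter in the cells in each comparison, so they passed only through lung and had to be lower. The other tested Hnf4a sets changed by -0.53 and 0.49 in untreated cells, and neither passed.

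Mesenchymal and endothelial factors of lung gave 5 higher and 15 lower of 22 in each comparison, with medians of -2.32 and -2.42. The background for this and the other lists was 17.2% higher and 23.9% lower in antibody-treated cells. In untreated cells it was 17.8% higher and 23.8% lower. Of the 15, 10 lay below the filter in the cells, among them Tcf21, Tbx4, Tbx2 and Sox18, so they passed only through lung and had to be lower. The fibroblast factor Tcf21, the lung mesenchyme factors Tbx4 and Tbx2 and the endothelial factor Sox18 changed by -7.44, -5.79, -5.09 and -5.14 in untreated cells. The genes that rose were Prrx1 (4.37), Twist1 (3.46), Twist2 (2.41), Snai2 (2.11) and Osr1, which are factors of limb, cranial and other connective tissue. Twist1 read 162 to 211 in antibody-treated and 160 to 185 in untreated cells, against at most 12.8 in lung, so it passed only through the cells and was not tested with any 1 cell array left out. No gene of any of these lists was called between antibody-treated and untreated cells.

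The cells were checked against markers of the epithelium that the 10 genes belong to. Of 8 epithelial markers 7 were lower in untreated cells, where 23.8% of all genes were, and Epcam, Cldn4, Krt7 and Cldn7 read below 30 on all 6 cell arrays. Epcam, Krt7 and Cldn7 read at most 11.1, 19.1 and 13.6 there, below the filter level. These passed only through lung and had to be lower. Krt19 was the marker that did not pass, with 1280 to 2561 in the cells and 1606 to 2720 in lung. The summed epithelial markers were 1790 to 2491 in antibody-treated and 1742 to 3107 in untreated cells, against 10844 to 21811 in lung. The 6 fibroblast markers summed to 6549 to 11302 and 7594 to 11459, against 13879 to 20180, with 3 lower and 1 higher. Endothelial markers summed to at most 55.9 and 69.7, against 9211 or more, and all 6 lymphocyte markers read below 30 on every cell array.

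The 3 genes whose pattern over the 22 arrays was most like Nkx2-1 were N4bp1, Tspan14 and Pbx2, of 27106 probe sets ranked. Likeness was the root mean square difference of log2 values, each centred on its lung mean, and it was 0.20 for N4bp1, 0.21 for Tspan14 and 0.22 for Pbx2. Foxp1 was the nearest of the other 9 genes, at rank 3004 (0.41), and Foxa1 the farthest, at rank 26839 (2.69). A small fall from lung is shared by the nearest genes, with changes in untreated cells of -1.14, -1.10 and -0.96. The ranking selects genes for values like those of Nkx2-1, so this shared fall follows from the selection.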

How the data were processed

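RNA of 22 samples was measured on Affymetrix mouse arrays. The authors deposited 1 linear intensity per probe set, summarized with PLIER per the submitters' processing notes, and its version, settings and scaling are not given in the sources used here. The 64 control probe sets of 45101 were left out. Symbols came from the platform annotation, which names 1 gene for 34945 sets, several for 932 and none for 9160. Intensities were taken as log2(intensity + 16) and quantile normalized over the 22 arrays. A probe set was tested if it lay above its array's 40th percentile on at least 3 compared arrays. Tests were two-sided and used limma 3.58.1 in R 4.3.3, with a variance trend and Benjamini-Hochberg adjustment at 0.05. Cells were set against the mean of female and male lung in a fit of the 4 groups, treated against untreated cells on 6 arrays and female against male lung on 16. Correlations used Python 3.11.15 and scipy 1.17.1 with 100000 resamples. The labels call the samples of a group biological replicates.

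Named genes were the 10 members, up to 4 genes of each list with the largest called change of untreated cells from lung, and the 3 genes nearest to Nkx2-1. Others were named after their values were seen: Foxa3, Gata5, Abca3, Etv4, Grhl2, Myb, Trp73, Hdac2, Fgfr1, Fgfr2, Ccnd1, Twist1, Twist2, Prrx1, Snai2 and Osr1. The members, the gene lists and the tests were chosen with earlier results of these data known. The fits were tested on simulated data. Arrays have no read depth, and their number limits the precision. The same-numbered treated and untreated samples did not deviate together, with correlations of 0.04, -0.17 and -0.01, so the numbers were not used as pairs. The alternatives were other scalings, offsets, filters, features and variance models, the replicate number as a block, and leaving out arrays.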

Additional observations from a re-analysis of the deposited data

Results flagged for a closer look

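Of 56 groups of 8 lung arrays examined, 28 probe sets by label of sex, 4 held an array whose gap to its nearest neighbour was over 0.526 of the group's range, and chance gives about 1 in 20 groups. Foxa2 (1422833_at) read 464.5 on the male-labelled array 2, against 614.0 or more on the other male-labelled arrays. Id2 (1453596_at) was lowest on the same array, at 41.7, with the next at 68.5. Etv5 (1450082_s_at) was highest on the array labelled male 3, at 541.7, and the next was male 4 at 313.4. Gata6 (1425464_at) was highest on female 5, at 456.4, with the next at 373.7. The outcome of these 4 probe sets in cells against lung was the same without male 3 and male 4. A setting without male 2 or female 5 was not run.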

How the results depend on the processing

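No direction of a called member probe set reversed under any alternative run. The outcome held in 358 of the recomputed member results for antibody-treated cells against lung, with 6 gaining and 4 losing the call, and in 349 for untreated cells, with 9 gaining and 10 losing it. It held in all 257 for antibody-treated against untreated cells and all 264 for female against male lung. The genes called lower numbered 6 or 7 in antibody-treated and 6 to 8 in untreated cells. Totals of called probe sets moved by over 1.5 times as follows, and the cause was not tested except where fewer features enter. With an offset of 64, 7889 and 7993 were called for antibody-treated and untreated cells against lung, against 12754 and 12944, and with 1 set per gene 6226 and 6315. For antibody-treated against untreated cells, 3 as reported became 5 with an offset of 64, 6 with array weights, 10 with all 22 arrays in the fit and 1 to 9 with an array left out, the most without untreated replicate 2 and the fewest without untreated replicate 3. Female against male lung gave 32 as reported, 19 with an offset of 1, 9 with no filter, 7 with 1 set per gene, 7 without the variance trend, 118 with array weights and 58 without the arrays labelled male 3 and male 4. With the replicate number as a block it gave 1, while the block left 12928, 13052 and 3 in the comparisons of antibody-treated cells with lung, untreated cells with lung, and treated with untreated cells. The samples share only a number, so the block is no pairing here. In that fit Foxp1 (1435222_at) was called lower in untreated cells, at -1.09. Correlated pairs numbered 0 without male 3 and male 4, against 22 with all 16 lung arrays. Among the gene lists, 17 counts moved by over 1.5 times. Paralogues called higher were 1, against 2 as reported, in both comparisons with lung with an offset of 64 or the 60th percentile filter, without any 1 untreated array and without antibody replicate 1 or 3, and those lower in untreated cells were 5, against 8, with an offset of 64. Gut and gastric genes called higher in untreated cells were 1, against 2, without normalization, with an offset of 64 and with the 60th percentile filter, and in antibody-treated cells 2, against 1, with an offset of 1 and without antibody replicate 1. FGF and ERK genes called higher were 5 in untreated cells with median centring, against 3, and 2 in antibody-treated cells with an offset of 64, against 4. The median change of tested probe sets in untreated cells was 0.15, and -0.04 without normalization and 0.23 with median centring.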
